A study of Capra hircus with 29 samples.

Results

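The genes described here encode the proteasome, its activators and inhibitor, and the chaperones that assemble it. They were chosen by symbol, as the rows of the oocyte expression table whose gene symbol starts with PSM, 1 letter from A to G and a number. The rule found 58 of 21343 genes, which carry 49 symbols. PSMC3IP matches the rule by name only, since it encodes a partner of the meiotic recombinases, and was kept apart, which left 48 symbols. For the 7 symbols on more than 1 row, the row of highest mean was taken as the leading row, and the 9 further rows are given separately.

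RNA-seq was carried out on oocytes of Ji'ning grey goats, and 29 samples were analysed here. HLO, HMO and HSO were the oocytes that a high fertility group, whose litters the labels put above 3 kids, held in its large, medium and small follicles. LLO, LMO and LSO were their counterparts in a low fertility group, with litters below 2 kids by the labels. The paper's methods instead put the limits at 3 or more and at 2 or fewer kids per litter. No group received a treatment, and the labels give no ages. There were 5 samples in each group except HSO, which had 4 and no sample numbered 2. The paper lists an HSO sample of that number, which is not among the samples analysed here. The paper states that oocytes of a follicle size were pooled over the goats of the high fertility group. Oocytes of each follicle size were then divided into samples of a few oocytes, and pooling in the low fertility group is not spelled out. On that reading the samples of a group come from a single pool and are not separate goats. SDs and p-values measure only the spread between these samples, which includes differences between goats to an unknown extent.

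The proteasome is the large protease that degrades proteins tagged with ubiquitin. Its barrel, the 20S core, is built of alpha rings (PSMA genes) and beta rings (PSMB genes) that hold the active sites, and its cap, the 19S particle, is built of ATPases (PSMC) that unfold the substrate and of non-ATPase subunits (PSMD) that bind ubiquitin chains and remove them. In oocytes, proteasomal degradation of cyclin B and securin is required to complete meiosis, and maternal proteins are cleared by the same route after fertilization.

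Values are FPKM, fragments scaled to the length of the gene model and to the mapped fragments of the sample. This puts genes on a common scale, but whether FPKM can be compared between genes here was not tested. The number of reads behind each value is unknown, and no counting error can be given. FPKM summed to between 222697 and 490048 per sample, and 6646 to 8689 genes lay above 0.5 FPKM. The 12 oocyte markers summed to between 1102 and 10200 FPKM. Among them NLRP5 stayed at or below 0.615 FPKM, and DAZL had a row at 0 and another at 0.0441 to 4.97 FPKM. The granulosa and cumulus markers summed to between 0.992 and 8.96 FPKM, with AMH at 0 and LHCGR at or below 0.0460 FPKM. HAS2 was at 0.640 to 4.34 FPKM, INHBA at 0.0451 to 5.21 FPKM, and FST reached 1.54 FPKM. The theca or stroma markers summed to between 5.32 and 43.4 FPKM, with DCN at 1.95 to 16.7 FPKM and ACTA2 at 0.361 to 27.5 FPKM, while COL1A1 and PDGFRA stayed at or below 0.0391 FPKM. Among leukocyte markers, CD52 reached 667 FPKM while PTPRC stayed at or below 0.0538 FPKM and CD14, TYROBP and FCER1G were listed at 0. LCP1 was at 1.48 to 5.35 FPKM and CORO1A at 0.0257 to 3.82 FPKM. A pair of samples stood apart. LMO2 had the lowest FPKM sum of all, 222697, and LLO2 had the fewest genes above 0.5 FPKM, 6646. LLO2 was the lowest of all samples for 13 of the 46 subunit genes tested in the whole series, and LMO2 for 9.

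Most core genes had higher FPKM than the cap genes. Of the 19 genes of the 20S core, 12 had a mean above 100 FPKM, and the median of their means was 124 FPKM. Of the 20 genes of the 19S particle none had, and the median was 9.31 FPKM. Over all 9692 genes that passed the filter, 590 had a mean above 100 FPKM and the median was 2.67 FPKM. The median core gene stood above the median cap gene within every one of the 29 samples, by a ratio of 13.2 at the median and of 5.65 to 30.4 over samples. How the length and completeness of the gene models bear on the order between genes was not tested.

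The alpha ring forms the gate of the barrel. Its most abundant gene was PSMA3 at 646 ± 237 FPKM (SD, n = 29), followed by PSMA4 at 580, PSMA6 at 518, PSMA5 at 311 and PSMA7 at 145 FPKM. PSMA3 and PSMA4 were not in a fixed order, since PSMA3 was the higher in 19 of 29 samples. A pair of alpha genes fell far outside this range. PSMA1 had a mean of 1.48 ± 1.22 FPKM and PSMA2 of 10.3 ± 8.41 FPKM (SD, n = 29), although every core particle contains both proteins. Both symbols stand on more than 1 row, PSMA1 on 2 and PSMA2 on 3, and the further rows added at most 0.304 FPKM in any sample. Reads were kept by the authors only when they matched the genome uniquely, so genes with near-identical copies are uncertain. Whether PSMA1 and PSMA2 have such copies, and whether this bears on their levels, was not tested. PSMA8, an alpha subunit known from testis that takes the place of PSMA7, was measured in every sample at 10.3 ± 7.02 FPKM (SD, n = 29). PSMA7 was above it in 29 of 29 samples, by 14.0 times at the median.

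The beta ring held the most abundant proteasome gene of the oocyte, PSMB1, at 980 ± 312 FPKM (SD, n = 29). It exceeded PSMB3, at 727 ± 241 FPKM, in 24 of 29 samples. PSMB7 had a mean of 339, PSMB4 of 158, PSMB2 of 124, and PSMB5 and PSMB6 of 115 FPKM each. PSMB11, the catalytic subunit of the thymus, was listed at 0 in all 29 samples.

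Constitutive catalytic subunits far outweighed the inducible ones. PSMB5, PSMB6 and PSMB7 carry the chymotrypsin-like, caspase-like and trypsin-like sites of the standard proteasome, and interferon-inducible PSMB8, PSMB9 and PSMB10 replace them in the immunoproteasome. PSMB8 had a mean of 0.595 ± 0.449 FPKM, PSMB9 of 13.1 ± 9.19 FPKM and PSMB10 of 2.14 ± 1.26 FPKM (SD, n = 29). In 29 of 29 samples each inducible gene was below its constitutive counterpart. The ratio was 230 at the median for PSMB5 to PSMB8, 191 for PSMB7 to PSMB10 and 9.61 for PSMB6 to PSMB9. PSMB9 was the highest of the inducible genes in every sample. Together the inducible genes made up 2.97% of the FPKM of the 6 catalytic genes at the median, from 0.546% in HLO5 to 21.9% in LLO2. In LLO2 the constitutive genes had their lowest sum, 66.2 FPKM, with PSMB7 at 15.1 FPKM against 107 FPKM in LLO5 and 182 to 521 FPKM in the other LLO samples.

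**Figure D1:**
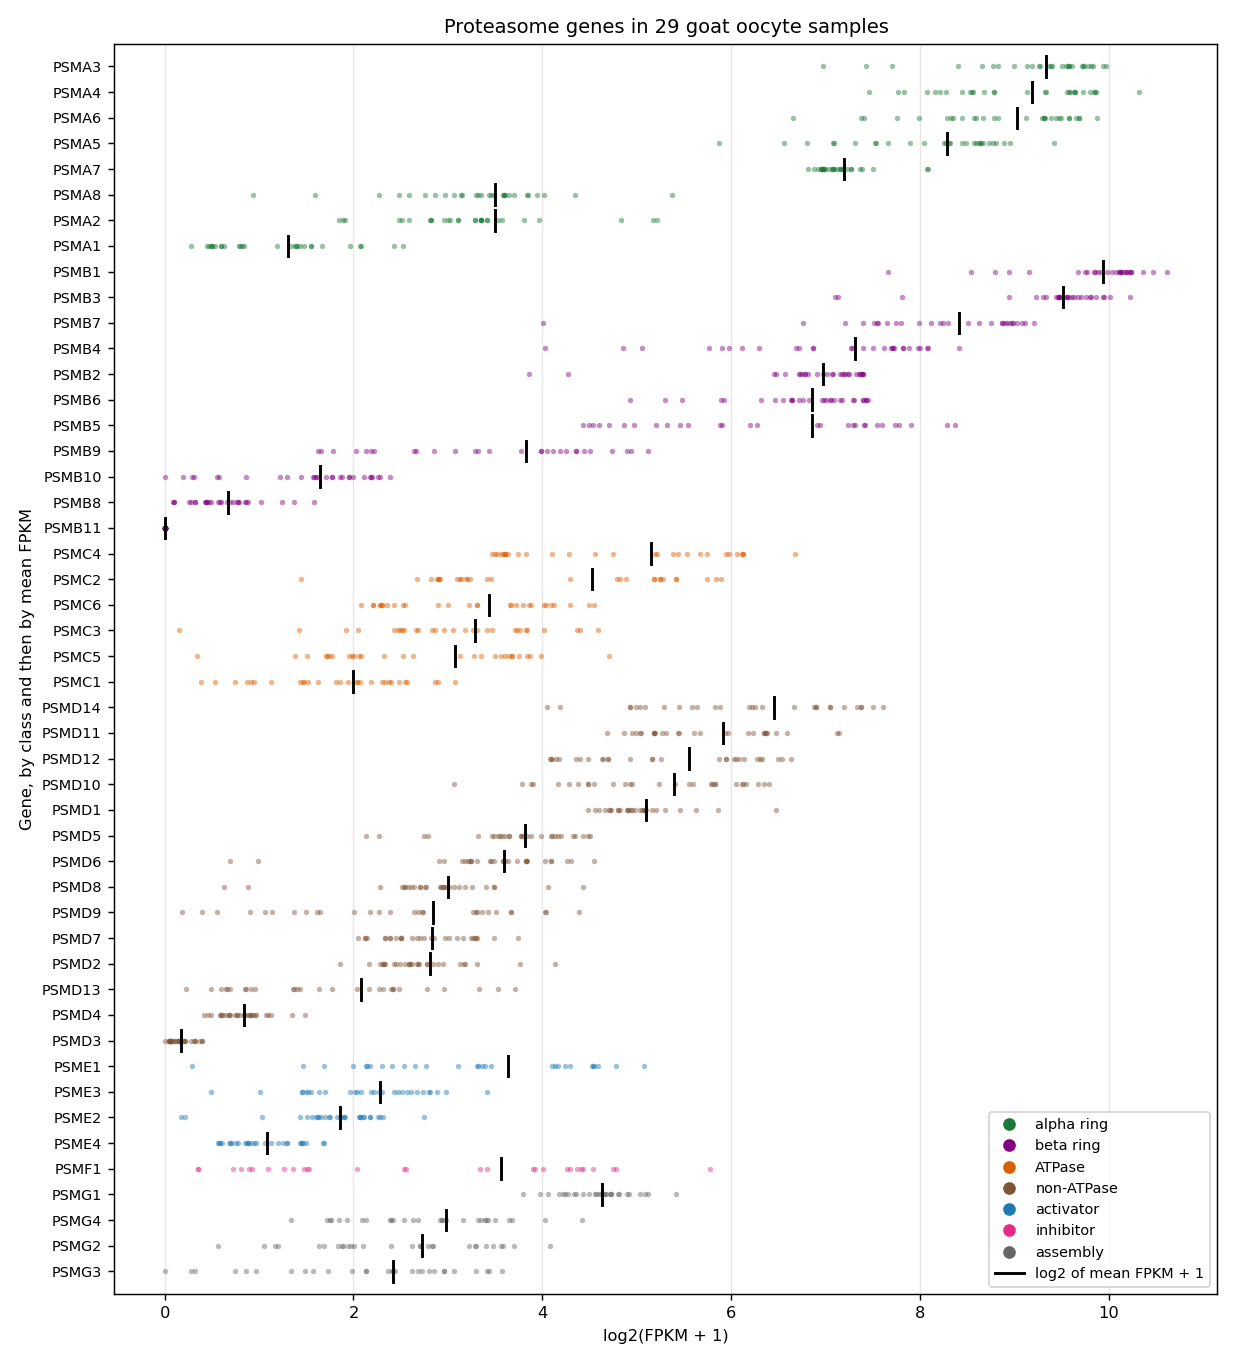
Level of the 48 proteasome genes, as log2(FPKM + 1) on the horizontal axis, with 1 point per sample (29 samples), colours for the classes and a black bar at the mean FPKM. Most PSMA and PSMB genes lie to the right of the PSMC and PSMD genes, with PSMA1, PSMA2, PSMA8 and the inducible PSMB8, PSMB9 and PSMB10 as exceptions and PSMB11 at 0.

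**Figure D2:**
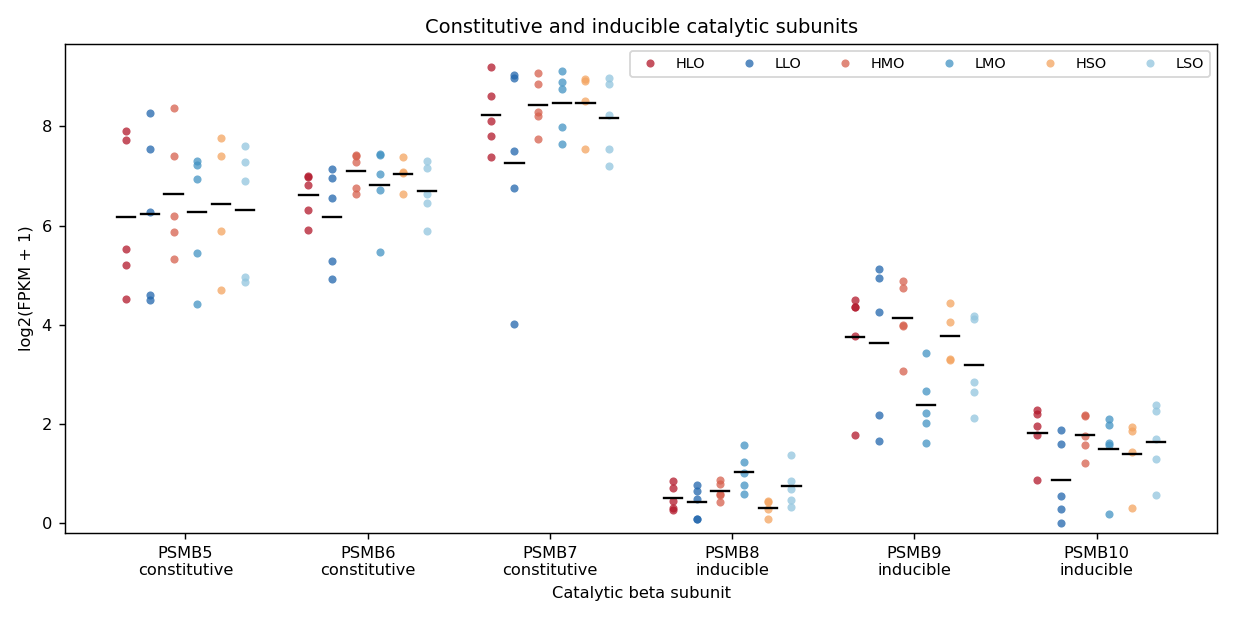
Level of the 6 catalytic beta subunits, as log2(FPKM + 1), by group, with 1 point per sample and a bar at the group's mean. The 3 constitutive genes stand above their inducible counterparts in 29 of 29 samples, and PSMB9 is the highest of the inducible ones.

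The ATPases form the ring that threads substrates into the barrel. PSMC4 was the highest at 34.6 ± 25.3 FPKM and PSMC1 the lowest at 2.98 ± 1.89 FPKM (SD, n = 29). PSMC2, the member of highest relative spread, had a coefficient of variation of 80.0%, with values from 1.72 FPKM in LLO2 to 58.5 FPKM in LLO4.

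Among the non-ATPase subunits, PSMD14, the deubiquitinase of the lid, was the highest at 86.3 ± 54.6 FPKM (SD, n = 29). PSMD11, a lid subunit that clamps the cap onto the core, had a mean of 59.0 FPKM, the lid subunit PSMD12 of 46.0 FPKM and the base chaperone PSMD10 of 40.9 FPKM. The low end held PSMD4, a ubiquitin receptor, at 0.794 ± 0.330 FPKM and the lid subunit PSMD3 at 0.126 ± 0.0944 FPKM (SD, n = 29). PSMD3 never exceeded 0.319 FPKM, and together with PSMB11 it did not pass the filter on low values. Whether the gene models of PSMD3 and PSMD4 bear on these low levels was not tested. The highest relative spread was that of PSMD13, 96.7%, from 0.169 FPKM in LLO2 to 12.1 FPKM in HSO5.

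The activators open the core without the 19S cap. PSME1 and PSME2, the partners of an interferon-inducible ring, had means of 11.4 ± 8.77 FPKM and 2.62 ± 1.13 FPKM (SD, n = 29), and PSME1 was the higher in 28 of 29 samples. PSME3, which forms a nuclear ring on its own, had 3.85 ± 2.04 FPKM, and PSME4, a large activator with a role in chromatin, had 1.12 ± 0.529 FPKM. PSMF1, an inhibitor of the core, had 10.8 ± 12.1 FPKM, and its coefficient of variation of 112% was the highest of all members. It was below 2 FPKM in 12 samples and reached 53.7 FPKM in HSO5.

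The chaperones PSMG1 to PSMG4 build the alpha ring as the pairs PSMG1 with PSMG2 and PSMG3 with PSMG4. PSMG1 was at 23.7 ± 6.32 FPKM (SD, n = 29), the lowest relative spread of the chaperones at 26.6%. Its partner PSMG2 had a mean of 5.60 FPKM and was below it in 29 of 29 samples. PSMG3 had 4.34 ± 3.11 FPKM, with LMO2 at 0, and PSMG4 had 6.89 ± 4.32 FPKM.

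Of the 9 further rows, 3 were at 0 in every sample. The further rows of PSMB6, PSMD14 and PSMD13 passed the filter, with means of 2.39, 1.59 and 0.295 FPKM against 115, 86.3 and 3.23 FPKM for the leading rows. PSMC3IP, the meiotic factor, was at 27.6 ± 16.1 FPKM (SD, n = 29), from 10.2 FPKM in LMO2 to 70.0 FPKM in HSO5.

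Samples of a group differed widely, and among the class sums most so in the ATPases. The summed FPKM of the 6 ATPases lay between 21.0 and 51.3 in 14 samples and between 74.5 and 232 in the other 15, with both kinds in every group. In HLO it was 135, 30.2, 31.4, 32.7 and 147 for samples 1 to 5, and in LLO it was 142, 21.0, 24.0, 178 and 102. In HMO it was 134, 42.6, 28.9, 32.7 and 117, and in LMO it was 74.5, 51.3, 27.9, 108 and 144. In HSO it was 98.8, 32.1, 50.8 and 232 for samples 1, 3, 4 and 5, and in LSO it was 98.1, 32.8, 34.4, 157 and 144. The numbers thus ran in parallel across the groups. Every sample numbered 1 or 5 was at 74.5 or above and every sample numbered 2 or 3 at 51.3 or below. Of the samples numbered 4, those of the high fertility group were at 50.8 or below and those of the low fertility group at 108 or above. The labels do not say what a number marks.

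Between the 5 numbers lay 43.7% of the sum of squares of log2(FPKM + 1) at the median of the 46 members tested, and 63.2% at the median of the ATPases, against 33.8% over all 9692 genes and a share of 14.3% of the degrees of freedom. Between the 6 groups lay 17.2% for the members and 16.8% for all genes, against 17.9% of the degrees of freedom. The number of genes above 0.5 FPKM moved with the same split, at 7699 to 8452 in samples numbered 1 or 5 and 6646 to 7527 in those numbered 2 or 3, and its part in the result was not tested.

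The summed FPKM of the core had a coefficient of variation of 29.1%, against 67.8% for the ATPases and 38.7% for the non-ATPases. Single genes of the core varied more than their sum, with a median coefficient of variation of 47.9%. It was 68.7% for ATPases and 53.8% for non-ATPases. All 9692 genes tested had a median of 64.1%, and the 590 of them with a mean above 100 FPKM had 47.1%. The core sum was 4538 ± 1504 in HLO and 4480 ± 1517 in LLO (SD, n = 5 each), 5702 ± 1283 in HMO and 4447 ± 1732 in LMO (SD, n = 5 each), and 5231 ± 915 in HSO (SD, n = 4) against 4466 ± 1433 in LSO (SD, n = 5). The ranges overlapped at each follicle size. In medium and small follicles the high fertility group had the higher mean, also without LMO2, when LMO was at 5142 ± 880 (SD, n = 4). These sums were not scaled to the FPKM sum of a sample, which was 395190 to 490048 in HMO and 398198 to 436739 in LMO without LMO2. As a share of all FPKM, proteasome genes were at 1.03% to 1.62% in HMO and 0.965% to 1.51% in LMO without LMO2. In large follicles the order of the means turned without LLO2, when LLO was at 4944 ± 1278 (SD, n = 4). It also turned when HLO1, HLO3, HLO5, LLO3 or LLO5 alone was left out. The lowest sum, 1664, was that of LMO2. Proteasome genes made up 0.734% to 1.63% of all FPKM in a sample. FPKM are relative to the rest of a sample's RNA, so fewer cells of a type and less RNA per cell cannot be told apart.

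**Figure D3:**
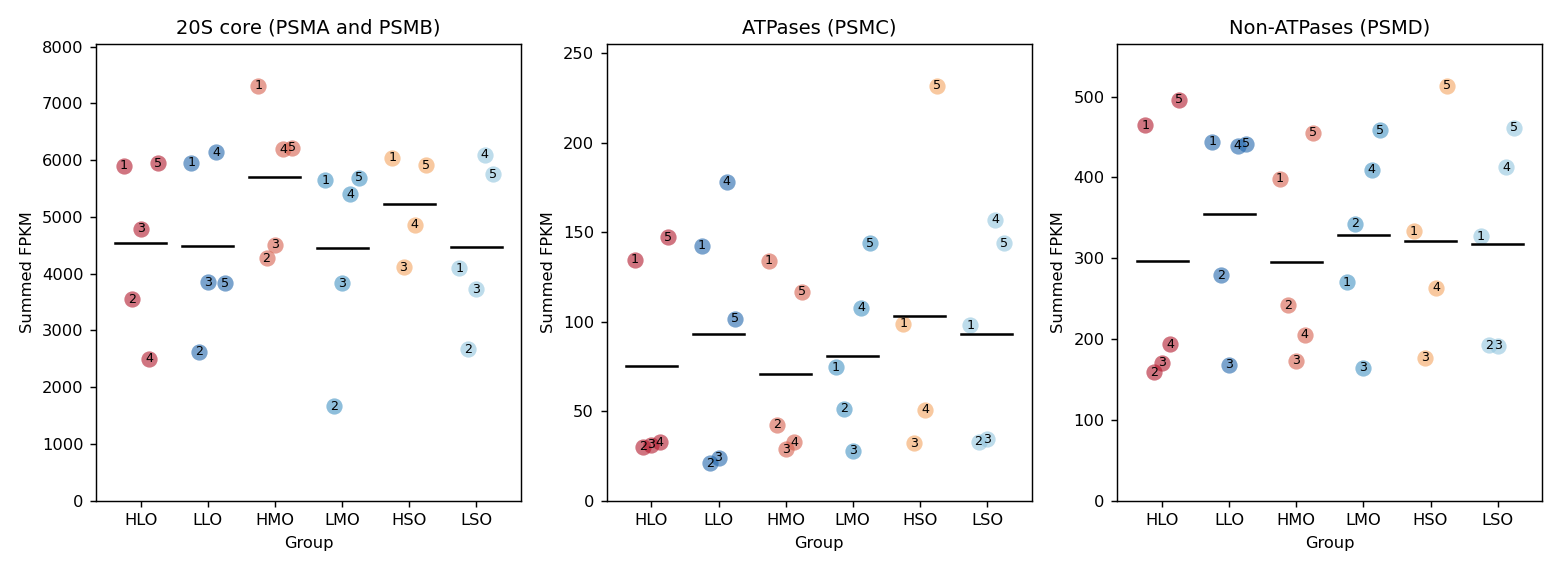
Summed FPKM of the core, ATPase and non-ATPase genes in each sample (vertical axes, from 0), by group, with the sample's number in each point and a bar at the group's mean. ATPase sums of samples numbered 2 and 3 are at 51.3 or below and those of samples numbered 1 and 5 at 74.5 or above in each group, while the group means lie within the spread of the samples.

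In large follicles the question was whether proteasome genes differ between HLO and LLO. No member passed the test after adjustment. By limma's moderated test with Benjamini-Hochberg adjustment over 8328 genes, 0 of 46 members had an adjusted p under 0.05 (0% of all genes did), and the smallest was 0.828. At an unadjusted p under 0.05 there were 2 of 46 members, against 4.14% of all genes. By an exact Wilcoxon test there was 1, against 2.47% of all genes. The median log2 difference of the members was 0.07, and that of all genes was -0.09. Without LLO2 the members' median was -0.19 and 1 member had an unadjusted p under 0.05, against 2.31% of all genes.

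PSMG4 (ENSCHIG00000018602), the chaperone that pairs with PSMG3, was the member with the clearest difference. It was at 10.3, 9.60, 6.69, 9.21 and 6.89 FPKM in HLO and at 2.39, 3.37, 2.30, 5.20 and 2.81 FPKM in LLO. Every HLO sample was above every LLO sample, as was the case for 0.276% of the genes tested. The difference was 1.20 ± 0.35 (SE) on the log2(FPKM + 1) scale, with an unadjusted p of 0.00426 and an adjusted p of 0.828 by limma. Its partner was not among the members with an unadjusted p under 0.05.

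PSMB10 (ENSCHIG00000023396), the inducible trypsin-like subunit, was at 2.88, 3.59, 0.821, 3.86 and 2.43 FPKM in HLO and at 2.67, 0.469, 0, 2.04 and 0.224 FPKM in LLO. The groups overlapped, since HLO3 was below a pair of the LLO samples. The difference was 0.95 ± 0.42 (SE) on the log2(FPKM + 1) scale, with an unadjusted p of 0.0390 and an adjusted p of 0.828 by limma. The unadjusted p exceeded 0.05 in 7 of the 10 fits that left out 1 sample and reached 0.107 without LLO3.

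In medium follicles 0 of 46 members had an adjusted p under 0.05 by limma, against 6 of 8390 genes or 0.0715%, and the smallest was 0.162. At an unadjusted p under 0.05 there was 1 of 46 members, against 8.67% of all genes. By the exact Wilcoxon test there were 2, against 6% of all genes. The median log2 difference was 0.04 for the members and -0.07 for all genes. When every sample was scaled to the same FPKM sum, these medians were -0.25 and -0.30. Without LMO2 the members' median was -0.07 and 2 had an unadjusted p under 0.05, against 7.6% of all genes. No member separated the groups completely, against 0.846% of genes with HMO above and 0.858% with HMO below.

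The 1 member was PSMB9 (ENSCHIG00000021513), the inducible subunit that takes the caspase-like site. It was at 28.8, 14.9, 7.43, 25.6 and 14.8 FPKM in HMO and at 9.84, 5.35, 3.07, 2.09 and 3.64 FPKM in LMO. Only HMO3, at 7.43 FPKM, fell within the LMO range. The difference was 1.74 ± 0.43 (SE) on the log2(FPKM + 1) scale, with an unadjusted p of 0.00144 and an adjusted p of 0.162 by limma. Over the 10 fits that left out 1 sample it ran from 1.55 to 2.01. PSMB8 is known to be induced together with PSMB9, and its mean was the lower in HMO, at 0.578 ± 0.200 FPKM against 1.12 ± 0.584 FPKM in LMO (SD, n = 5 each), with an unadjusted p of 0.0731 by limma. As a share of the 6 catalytic genes the inducible genes were at 3.38% ± 1.08 in HMO and 1.55% ± 0.968 in LMO (SD, n = 5 each), and the ranges overlapped. PSMB9 had the highest mean of the inducible genes in both groups, so this share is not independent of its difference.

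In small follicles 45 members were tested, since PSMB8 fell below the filter there. By limma 0 of 45 had an adjusted p under 0.05, against 0.0119% of 8376 genes, and 0 of 45 had an unadjusted p under 0.05, against 4.41% of all genes. The exact Wilcoxon test also gave 0, against 4.12% of all genes. The 3 members of smallest p were PSMA3, PSMD8 and PSMD2. PSMA3 was at 846 ± 170 FPKM in HSO (SD, n = 4) and 553 ± 182 FPKM in LSO (SD, n = 5). PSMD8, a lid subunit, was at 5.63 ± 1.21 and 10.3 ± 5.88 FPKM. PSMD2, the base scaffold, was at 5.09 ± 0.856 and 8.33 ± 4.73 FPKM. In these 3 genes the groups overlapped, and their adjusted p was 0.880. LSO1 was the highest LSO sample for PSMD8, at 20.6 FPKM, and for PSMD2, at 16.6 FPKM.

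Over all follicle sizes, 14 samples of the high and 15 of the low fertility group were compared with follicle size in the model. Again 0 of 46 members had an adjusted p under 0.05 by limma, against 0.0103% of 9692 genes, and the smallest was 0.436. At an unadjusted p under 0.05 there were 3 of 46, against 9.99% of all genes. Members and genes were spread over both directions. The estimate was above 0 for 24 of 46 members, against 42.8% of all genes, and the medians were 0.02 and -0.04. That count was 34 with median-of-ratios factors, 19 with samples scaled to the same FPKM sum and 10 with array weights, and it ran from 20 to 33 when 1 sample was left out, with 21 without LLO2. Within the classes, 8 of 10 beta ring genes were above 0, with a median of 0.37, and 4 of 13 non-ATPases, with a median of -0.03. The alpha ring had 4 of 8 above 0, the ATPases 3 of 6, the activators 2 of 4 and the chaperones 3 of 4. Other scalings gave 8 or 9 of 10 beta ring genes above 0, and array weights 6. The non-ATPases above 0 ranged from 1 of 13 with array weights to 9 with median-of-ratios factors, and the ATPases from 0 of 6 to 5. Without LLO2 and without LMO2 the beta ring had 8 of 10 above 0 each time. These counts are a description, and the genes of a class share samples and are not independent.

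PSMA3 (ENSCHIG00000016692) was at 762, 611, 875, 401 and 673 FPKM in HLO and 845, 124, 560, 451 and 207 FPKM in LLO. In HMO it was at 908, 669, 582, 848 and 841 FPKM and in LMO at 895, 171, 616, 778 and 761 FPKM. In HSO it was at 1000, 659, 980 and 743 FPKM and in LSO at 337, 436, 510, 723 and 758 FPKM. The lowest samples were those of the low fertility group, with LLO2 and LMO2 lowest of all, and the groups overlapped at each follicle size. The difference was 0.65 ± 0.26 (SE) on the log2(FPKM + 1) scale, with an unadjusted p of 0.0164 and an adjusted p of 0.436 by limma. It was 0.52 both without LLO2 and without LMO2, with unadjusted p of 0.0315 and 0.0320.

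PSMD11 (ENSCHIG00000008139) had the opposite direction. It was at 60.1, 30.0, 28.1, 35.4 and 95.4 FPKM in HLO and 61.4, 82.3, 35.2, 80.4 and 138 FPKM in LLO. In HMO it was at 42.5, 47.8, 31.8, 24.7 and 49.8 FPKM and in LMO at 35.3, 140, 32.1, 71.4 and 81.4 FPKM. In HSO it was at 37.6, 30.9, 38.6 and 87.7 FPKM and in LSO at 80.6, 42.4, 35.7, 74.1 and 81.1 FPKM. Values above 100 FPKM occurred only in LLO5 and LMO2, and the groups overlapped at each follicle size. The difference was -0.60 ± 0.25 (SE), with an unadjusted p of 0.0225 and an adjusted p of 0.454 by limma, and it was -0.51 without LMO2.

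PSMB9 was at 19.4, 19.5, 12.6, 21.8 and 2.44 FPKM in HLO and 29.7, 18.1, 2.16, 33.8 and 3.57 FPKM in LLO. It was at 20.8, 8.75, 15.6 and 8.96 FPKM in HSO and 17.1, 5.26, 6.20, 16.3 and 3.38 FPKM in LSO. Over all sizes its difference was 0.83 ± 0.37 (SE), with an unadjusted p of 0.0339 and an adjusted p of 0.476 by limma. By follicle size it was 0.12 ± 0.76 in large, 1.74 ± 0.43 in medium and 0.59 ± 0.49 in small follicles (SE), and PSMB9 was not among the members with an unadjusted p under 0.05 for the interaction of fertility with follicle size. In 9 of the 29 fits that left out 1 sample the unadjusted p exceeded 0.05, with 0.0665 without LLO3 as the highest.

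**Figure D4:**
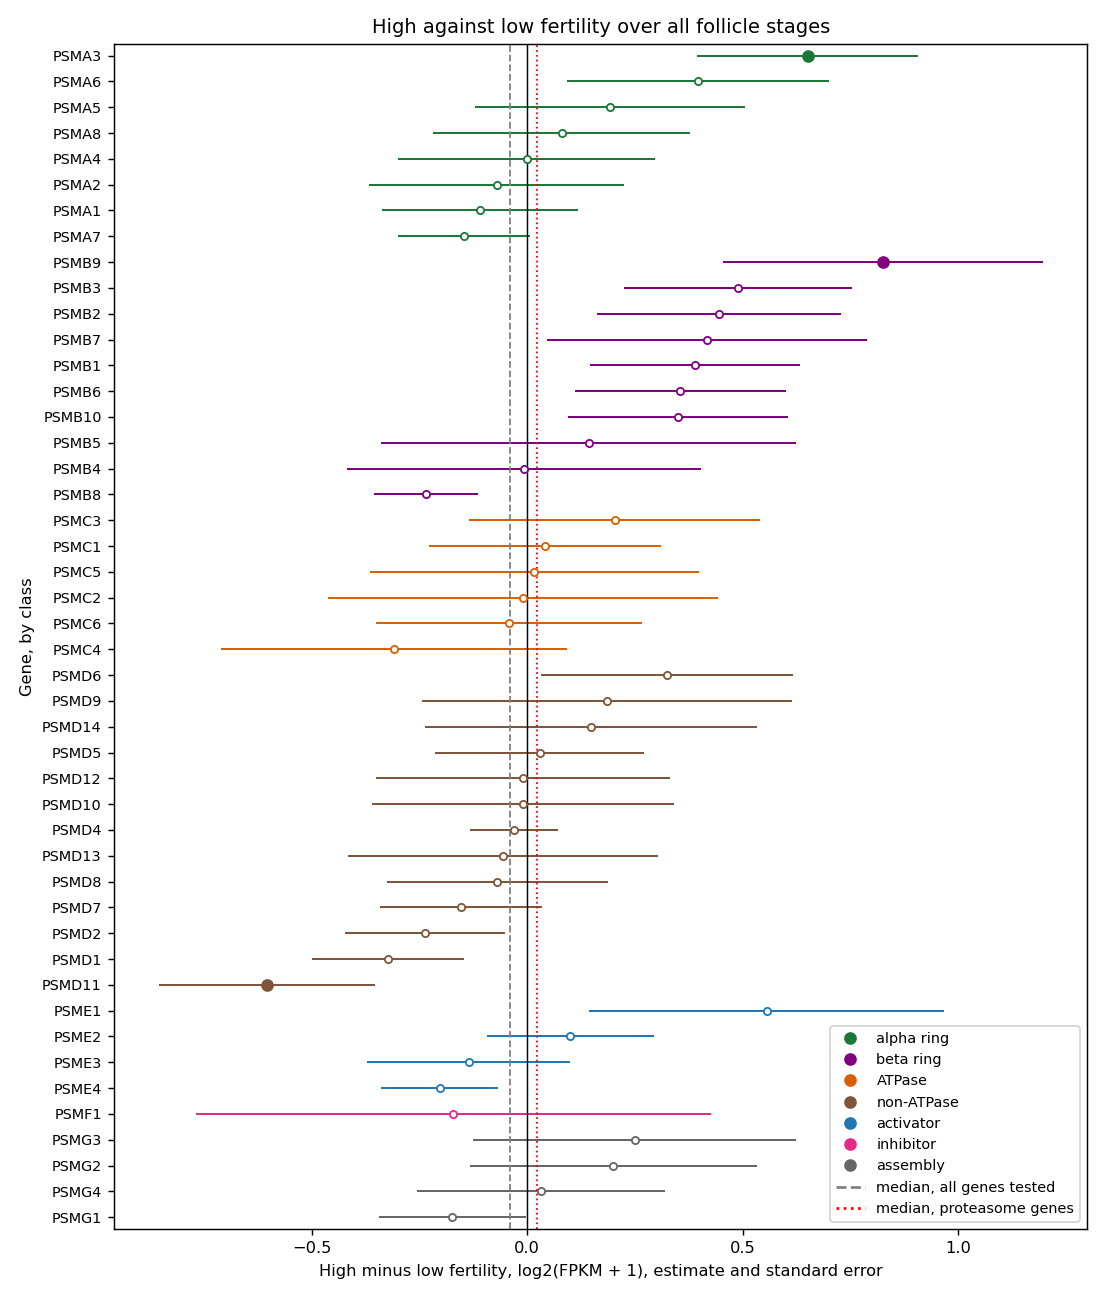
Difference between the high and low fertility groups over all follicle sizes for the 46 members tested, on the log2(FPKM + 1) scale, as estimate and standard error, coloured by class. Filled points are the 3 members with an unadjusted p under 0.05 (PSMA3, PSMB9 and PSMD11), and the lines mark the medians of all genes (-0.04) and of the members (0.02).

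The follicle sizes were compared by limma's F-test with fertility in the model. By it 0 of 46 members had an adjusted p under 0.05, as did 0% of 9692 genes, and 1 of 46 had an unadjusted p under 0.05, against 1.66% of all genes. That member was PSMB8 (ENSCHIG00000012829). It was at 0.805, 0.647, 0.198, 0.247 and 0.369 FPKM in HLO, and at 0.402, 0.0693, 0.0626, 0.718 and 0.577 FPKM in LLO. In HMO it was at 0.727, 0.478, 0.839, 0.503 and 0.344 FPKM, and in LMO at 1.37, 0.517, 1.99, 1.03 and 0.706 FPKM. In HSO it was at 0.357, 0.0682, 0.215 and 0.358 FPKM, and in LSO at 1.59, 0.387, 0.250, 0.622 and 0.814 FPKM. LMO held the highest values, and all groups overlapped with LMO except HSO. Medium minus small follicles was 0.31 ± 0.15 and large minus small -0.07 ± 0.15 (SE) on the log2(FPKM + 1) scale, with an unadjusted F-test p of 0.0350 and an adjusted p that rounds to 1. All these levels are low, and the unadjusted p was 0.0558 without LLO2 and 0.0979 without LMO3.

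From small to large follicles the 6 ATPases all had estimates below 0, with a median of -0.45. Of the beta ring genes 9 of 10 did, with a median of -0.22. Below 0 were also 29 of 46 members and 6179 of 9692 genes tested. The median was -0.19 for the members and -0.08 for all genes. The alpha ring (5 of 8 above 0) and the non-ATPases (8 of 13 above 0) had no common sign. The median standard error of a single member was 0.36. Without LLO2 the medians were -0.23 for the ATPases (1 of 6 above 0), -0.12 for the beta ring (2 of 10 above 0) and -0.08 for the members. When any 1 sample was left out, the members' median ran from -0.37 without HSO3 to -0.04 without LLO3. The counts moved with the scaling too. The ATPases above 0 were 1 of 6 with median-of-ratios factors and 2 of 6 with quantile normalization, and the beta ring genes above 0 were 2 and 3 of 10. With array weights 2 of 8 alpha ring genes and 1 of 13 non-ATPases were above 0.

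**Figure D5:**
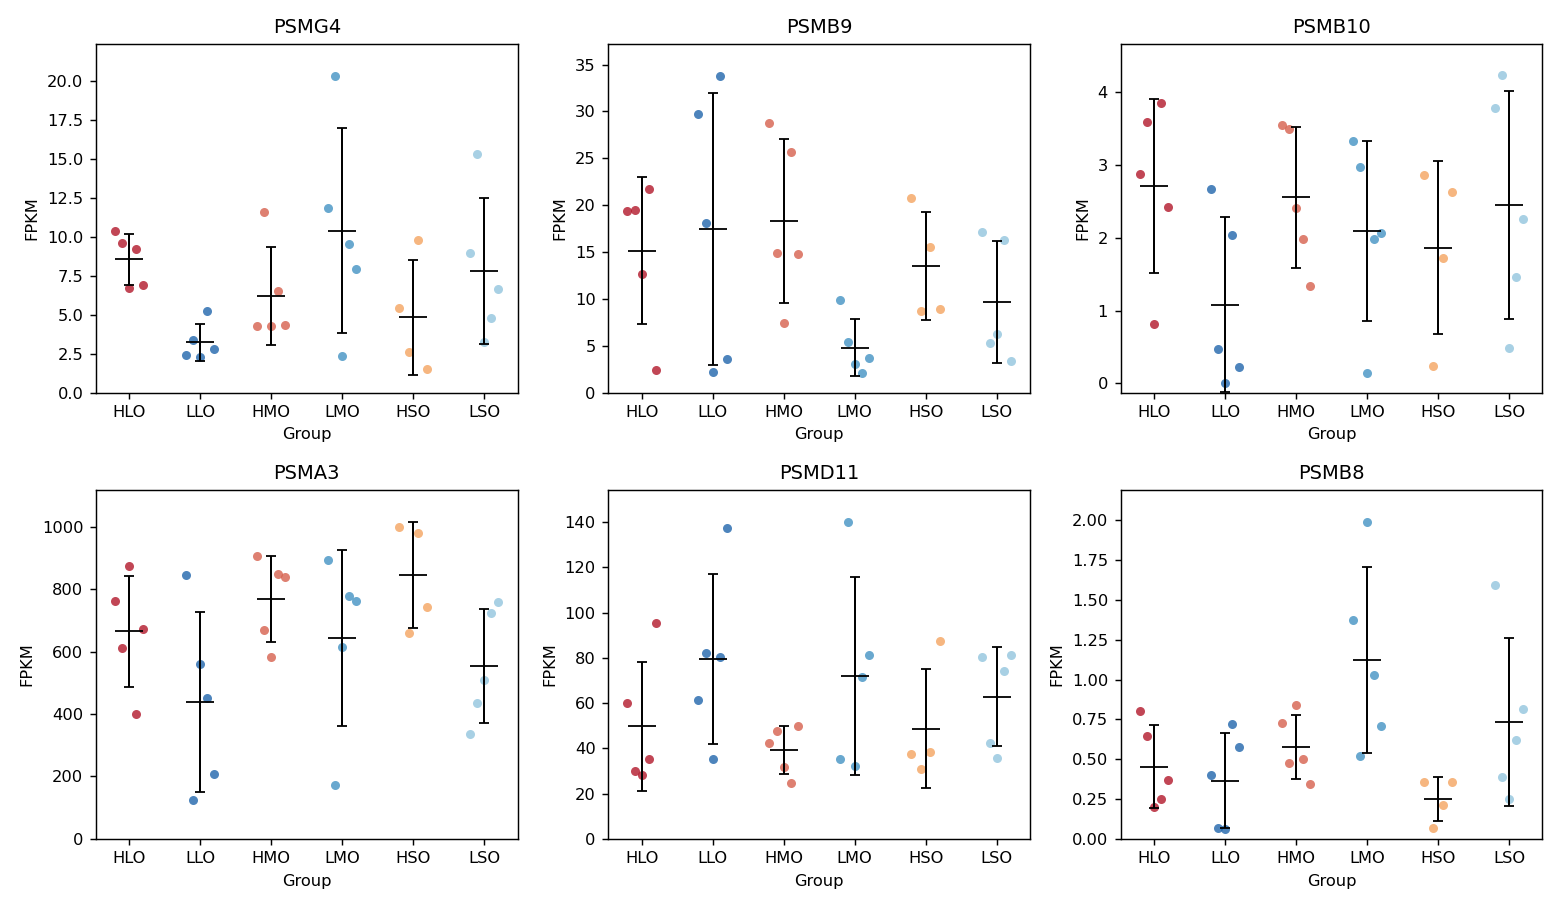
FPKM (vertical axes) of 6 members with an unadjusted p under 0.05 in some comparison, by group, with 1 point per sample and the mean ± SD in black. HLO lies wholly above LLO for PSMG4 (6.69 to 10.3 against 2.30 to 5.20 FPKM), and 4 of the 5 HMO samples lie above LMO for PSMB9.

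Whether the fertility difference varies with follicle size was tested by the interaction. By limma's F-test 0 of 46 members had an adjusted p under 0.05, as did 0% of 9692 genes, with a smallest value of 0.356. At an unadjusted p under 0.05 there were 4 of 46 members, PSMG4, PSMD8, PSME2 and PSMD6, against 7.89% of all genes. For PSMG4 the fertility difference was 1.20 ± 0.35 in large, -0.53 ± 0.46 in medium and -0.66 ± 0.50 in small follicles (SE), and the unadjusted p of the interaction was 0.00796. In HMO PSMG4 was at 4.25, 11.6, 4.28, 6.53 and 4.33 FPKM and in LMO at 11.8, 20.3, 2.36, 9.52 and 7.94 FPKM. In HSO it was at 5.42, 2.60, 9.76 and 1.52 FPKM and in LSO at 8.95, 15.3, 3.26, 4.79 and 6.64 FPKM. Both pairs of groups overlapped.

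The other 3 also had their highest estimate in large follicles. For PSMD8 it was 0.82 ± 0.52 in large and -0.67 ± 0.36 in small follicles (SE), with an unadjusted interaction p of 0.0321. For PSME2 it was 0.65 ± 0.38 in large, -0.51 ± 0.25 in medium and 0.17 ± 0.32 in small follicles (SE), with 0.0401. For PSMD6, a lid subunit, it was 1.28 ± 0.63 in large and -0.34 ± 0.33 in medium follicles (SE), with 0.0468. In LLO the low values of these genes were those of LLO2 and LLO5. PSMD8 was at 0.552 and 0.840 FPKM there, and PSMD6 at 0.618 and 0.980 FPKM. PSME2 was at 0.166 and 0.132 FPKM. The remaining LLO samples were at 3.85 FPKM or above for PSMD8, 8.09 FPKM or above for PSMD6 and 1.96 FPKM or above for PSME2. Without LLO2 only PSMG4 had an unadjusted p under 0.05 by the F-test, of 0.0112, against 7.35% of all genes. Without LMO2 PSMG4 and PSMD8 had, against 6.75% of all genes.

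Genes that work with the proteasome were taken from a list of 33 symbols, of which 29 were in the table. They cover ubiquitin itself, the activating enzymes, shuttles, the maturation factor POMP and the transcription factor NFE2L1 with its processing enzymes. Ubiquitin genes were the most abundant, with UBB at 1779 ± 1076 FPKM and RPS27A at 966 ± 321 FPKM (SD, n = 29). POMP, which is needed to complete the beta rings, was expressed from a pair of rows at 601 ± 210 and 179 ± 65.7 FPKM, and AKIRIN2, which carries proteasomes into the nucleus, was at 222 ± 126 FPKM (SD, n = 29). POMP was thus within the range of the core genes. The rise of proteasome genes that NFE2L1 drives is known from other cells, and here NFE2L1 was at 0.497 ± 0.221 FPKM and its protease DDI2 at 0.362 ± 0.258 FPKM (SD, n = 29).

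None of the partner rows had an adjusted p under 0.05 in any comparison by limma, the smallest being 0.436. At an unadjusted p under 0.05 there was 1 of 27 in large follicles, 4 of 29 in medium, 1 of 27 in small and 3 of 29 over all sizes, against 4.14%, 8.67%, 4.41% and 9.99% of all genes. Over all sizes the share of the partner rows is thus near that of all genes, and the 3 were lower in the high fertility group. UBA1, the main ubiquitin-activating enzyme, was at 8.79 ± 2.05 FPKM (SD, n = 14) against 13.1 ± 5.10 FPKM (SD, n = 15), with an adjusted p of 0.436 by limma. ECPAS, which tethers the cap to the core, was at 3.46 ± 0.914 against 4.71 ± 1.53 FPKM, and NGLY1, which deglycosylates NFE2L1, at 31.8 ± 8.27 against 43.8 ± 16.6 FPKM. In medium follicles ECPAS and UBA1 were again the lower in HMO, and AKIRIN2 and PAAF1 were the higher. AKIRIN2 was at 354 ± 164 FPKM in HMO and 152 ± 60.5 FPKM in LMO (SD, n = 5 each), a difference of 1.22 ± 0.48 (SE) on the log2(FPKM + 1) scale with an adjusted p of 0.510 by limma. SHFM1, a small lid subunit that the PSM symbols do not cover, had the only such difference in large follicles, at 21.1 ± 18.5 FPKM in HLO and 7.83 ± 13.1 FPKM in LLO (SD, n = 5 each). UFD1, a cofactor of the segregase VCP, had it in small follicles, at 5.51 ± 1.498 FPKM in HSO (SD, n = 4) and 11.7 ± 7.04 FPKM in LSO (SD, n = 5). In the F-test of follicle sizes the 1 partner row with an unadjusted p under 0.05 was RPS27A, and for the interaction it was AKIRIN2, with an adjusted p by limma that rounds to 1 for RPS27A and of 0.555 for AKIRIN2.

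PSMC3IP had nearly the same mean in the groups compared in large follicles, at 23.7 ± 12.5 FPKM in HLO and 24.3 ± 13.0 FPKM in LLO (SD, n = 5 each). Over all sizes the difference was -0.09 ± 0.31 (SE) on the log2(FPKM + 1) scale, with an adjusted p of 0.964 by limma. The further rows of PSMB6 and PSMD14 differed by 0.27 ± 0.23 and -0.02 ± 0.18 (SE) over all sizes, with adjusted p of 0.712 and 0.990 by limma.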

How the data were processed

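The authors sequenced polyadenylated RNA of pooled goat oocytes, aligned reads to the goat genome, kept unique matches, took out duplicates with picard and computed FPKM with Cufflinks on the Ensembl gene models, deposited as a single table. The aligner and genome build are not given in the sources used here, so no coordinates or sequences are printed. Column names gave the samples, and 1 column whose name fits none of the samples here was not used. No pair of samples held identical values. Depth is unknown from FPKM.

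Members and partner genes were taken by symbol. The members and lists were chosen with earlier results of these data known. Genes were kept where 4 or more of the compared samples exceeded 0.5 FPKM, and were fitted with limma 3.58.1 in R 4.3.3 (trend) on log2(FPKM + 1), which understates changes of low genes, and p-values were adjusted by Benjamini-Hochberg over all genes tested. Fertility was compared within each follicle size and over all sizes, follicle sizes by an F-test, and the interaction over 6 group means. Sequencing depth, batches and RNA quality are not in the labels.

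Named were the members with an unadjusted p under 0.05 in a comparison, or the 3 of smallest p where none had; the highest, lowest and most variable member of each class; the catalytic, tissue-restricted, activator, inhibitor and chaperone genes; symbols on more than 1 row; and partner genes with an unadjusted p under 0.05. The fits were tested on simulated data. Alternatives were pseudocounts of 0.1 and 0.5, other filters and scalings, array weights, a replicate block, rows summed by symbol, 1 fit over all samples, an exact Wilcoxon test and each sample left out. Tables were made with Python 3.11.15, numpy 2.4.6 and pandas 2.3.3, and figures with matplotlib 3.10.9.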

Additional observations from a re-analysis of the deposited data

Results flagged for a closer look

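A sample far from the others of its group was looked for in 12 genes or sums of the report in each of the 6 groups, and 2 of 72 groups had one by Dixon's test at its 95% limit. Chance flags about 1 in 20 groups. PSMD11 was at 87.7 FPKM in HSO5, against 30.9 to 38.6 FPKM in the other HSO samples. PSMD8 was at 20.6 FPKM in LSO1, against 6.61 to 9.60 FPKM in the other LSO samples. The same sample HSO5 was the highest of all samples for 9 members.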

How the results depend on the processing

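Under every alternative run, PSMG4 and PSMB10 in large, PSMB9 in medium and PSMA3, PSMD8 and PSMD2 in small follicles, and PSMA3, PSMD11 and PSMB9 over all sizes, kept their direction. Counts of members with an unadjusted p under 0.05 depended on the setting, and the cause was not tested. In large follicles the count of 2 became 1 with no filter and with the exact Wilcoxon test, against 3.82% and 2.47% of all genes. It became 4 with median-of-ratios factors and with quantile normalization, against 5.86% and 6.48%. With array weights it was 6 and with 1 fit over all samples 7, against 16.5% and 11.4%. In medium follicles the count of 1 became 2 with no filter, with samples scaled to the same FPKM sum and with the Wilcoxon test. The shares of all genes were 8.13%, 9.28% and 6%. It became 14 with array weights, against 39.8% of all genes. Array weights also gave 2 of 46 members with an adjusted p under 0.05 instead of 0, against 12.1% of all genes. In small follicles the count of 0 became 2 with array weights, against 8.11% of all genes. Over all sizes the count of 3 became 6 with median-of-ratios factors and 12 with array weights, against 10.4% and 33.8% of all genes. With array weights 3 of 46 had an adjusted p under 0.05, against 7.13% of all genes. Between follicle sizes the count of 1 became 3 with a pseudocount of 0.1, 2 with 0.5 and 3 with array weights. The shares of all genes were 2.18%, 1.88% and 8.43%.

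Leaving out 1 sample gave 1 to 4 members in large, 1 to 4 in medium and 0 to 2 in small follicles. It gave 2 to 4 over all sizes, 0 to 4 between follicle sizes and 1 to 6 for the interaction. No member had an adjusted p under 0.05 in these fits. Of all genes, 1.88% to 10.6% passed unadjusted in large, 4.82% to 12.6% in medium and 1.88% to 7.95% in small follicles. The ranges were 7.48% to 13.8% over all sizes, 0.88% to 5.1% between follicle sizes and 6.15% to 11.6% for the interaction. The members' median then ran from -0.19 to 0.37 in large, from -0.15 to 0.20 in medium, from -0.03 to 0.36 in small follicles and from -0.05 to 0.10 over all sizes. Scaling to the same FPKM sum moved the median of all genes over all sizes from -0.04 to -0.14 and that of the members from 0.02 to -0.10. With array weights the members' median was -0.35 in large and -0.40 in medium follicles and -0.21 over all sizes.

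Samples with the same number deviated together in part: the correlation of their deviations from the group means was above 0.1 in 4 of 5 pairs of HLO and LLO, 4 of 5 of HMO and LMO and 2 of 4 of HSO and LSO, with a lowest value of -0.48. Over all pairs of groups it was above 0.1 in 55 of 70 with a median of 0.469, among them 13 of 13 within the high fertility group, and 40 of 70 correlated best with their own number. Not every pair of the groups compared was above 0.1, which was the condition for pairing, so the main fits hold no block, although the numbers do go with a shared part of the variation. With the number as a replicate block the counts were 4 in large, 5 in medium and 0 in small follicles. Of all genes, 8.21%, 16.4% and 9.41% passed there. They were 5 over all sizes, 3 between follicle sizes and 7 for the interaction, against 15.1%, 2.86% and 14.5% of all genes. By limma 1 member, PSMB9 in medium follicles, had an adjusted p under 0.05, of 0.0337, against 1.51% of all genes in that comparison. Depth limits are unknown, since no counts were used.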

Other observations

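LLO2 and LLO5 departed from the other samples in the balance of the proteasome. The ratio of alpha to beta ring FPKM was 2.69 in LLO2 and 2.18 in LLO5, against 0.481 to 1.05 in the other 27 samples. PSMB2 was at 18.4 FPKM in LLO2 and 13.5 FPKM in LLO5, and at 86.5 FPKM or above in the rest. PSMD1, the base scaffold, had its highest values in the same samples, 87.8 and 57.1 FPKM. In LLO2 the inducible share of the 6 catalytic genes was 21.9%, against 0.740% to 3.80% in the other LLO samples, and the ratio of core to cap FPKM was 8.75, within the range of 7.05 to 20.04 of the group. PSMA8 was at 40.3 FPKM in LLO2, the highest of all samples, while 13 other members were at their lowest there. In LMO2 the ratio of core to cap FPKM was 4.22, the lowest of all samples, against 9.44 to 19.9 in the other LMO samples.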
